A study of Mus musculus with 6 samples.

Results

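Toll-like receptors are membrane proteins of the innate immune system that recognise molecules of microbes and of damaged cells. Described here are the transcripts of 8 Toll-like receptor genes, of Cd14, which hands lipopolysaccharide to the receptor encoded by Tlr4, and of Myd88, the adaptor that these receptors share. The genes are Tlr1, Tlr2, Tlr4, Tlr6, Tlr7, Tlr8, Tlr9, Tlr13, Cd14 and Myd88. They were chosen by name: every probe that the array files assign to one of these 10 gene names was taken, which gave 14 of the 55681 probes measured.

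The samples were whole testes of 6 male mice on the C57BL/6 background at 5 months of age, 1 testis for each array. In 3 of the mice (AROM+) a transgene over-expressed aromatase, the enzyme that converts androgens to oestrogens, and the other 3 were wild type (WT). The promoter of the transgene and the species of its aromatase sequence are not given in the sources used here. Total RNA labelled with Cy3 was hybridised to one-colour Agilent arrays, and the study set AROM+ against WT testes to find genes whose expression differed.

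Cell-surface receptors of this family work in pairs or with helper proteins: the receptors encoded by Tlr1 and Tlr6 each pair with that of Tlr2 to bind bacterial lipopeptides, while the receptor encoded by Tlr4 works with the proteins of Ly96 and Cd14 on lipopolysaccharide. The receptors encoded by Tlr7, Tlr8, Tlr9 and Tlr13 sit in endosomes and read nucleic acids, and the trafficking protein encoded by Unc93b1 brings them there. Through MyD88 and the IRAK kinases, ligand binding leads to NF-κB and interferon regulatory factors. Macrophages, which are abundant between the seminiferous tubules of the testis, are among the cells best known for making these receptors.

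The 3 lipopeptide receptors were each measured by a single 60-base oligonucleotide, and these are shown because Tlr1 and Tlr6 are close relatives that lie side by side in the genome. The sequences are as deposited, 5′ to 3′, and capitals mark the bases that match between the Tlr1 and Tlr2 oligonucleotides in their best alignment without gaps.
Tlr1: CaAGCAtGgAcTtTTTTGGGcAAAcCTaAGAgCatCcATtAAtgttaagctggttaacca
Tlr2: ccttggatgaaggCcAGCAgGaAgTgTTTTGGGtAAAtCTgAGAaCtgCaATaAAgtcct
Tlr6: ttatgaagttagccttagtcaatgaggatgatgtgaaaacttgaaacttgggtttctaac
The Tlr1 and Tlr2 oligonucleotides matched at 29 of their 47 overlapping bases, which is 48.3% of the probe length. The Tlr1 and Tlr6 oligonucleotides matched at 22 bases, or 36.7%, and those of Tlr2 and Tlr6 at 21 bases, or 35%. The oligonucleotides were compared only with each other, so whether one binds the transcript of another gene was not tested. In the coordinates of the array files (mm9), the probes lie on the minus strand at chr5:65316115-65316174 for Tlr1, chr3:83640344-83640403 for Tlr2 and chr5:65344365-65344424 for Tlr6. No exon annotation of that build was used here, so whether a probe lies in coding sequence or UTR is not stated.

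Of the 10 genes, 7 were higher in AROM+ than in WT testes, Tlr9 was lower, and Tlr8 and Myd88 were not called. A gene was called at an adjusted p under 0.05 in limma, with Benjamini-Hochberg adjustment over the 18852 genes tested. Among all those genes 19.9% were called higher, 32.6% lower and 52.4% in either direction. The median difference over the 10 genes was 1.44 on the log2 scale, AROM+ minus WT, beside −0.14 over all genes tested. Every gene had at least 1 probe kept for testing, that is, well above background on all 3 arrays of a group, but Tlr6 and Tlr8 passed that filter through the AROM+ group alone. With signal required on all 6 arrays, 6 of the 8 genes left were called higher, beside 20% of all genes. In whole tissue, more cells of a type and more RNA per cell cannot be told apart.

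**Figure D1:**
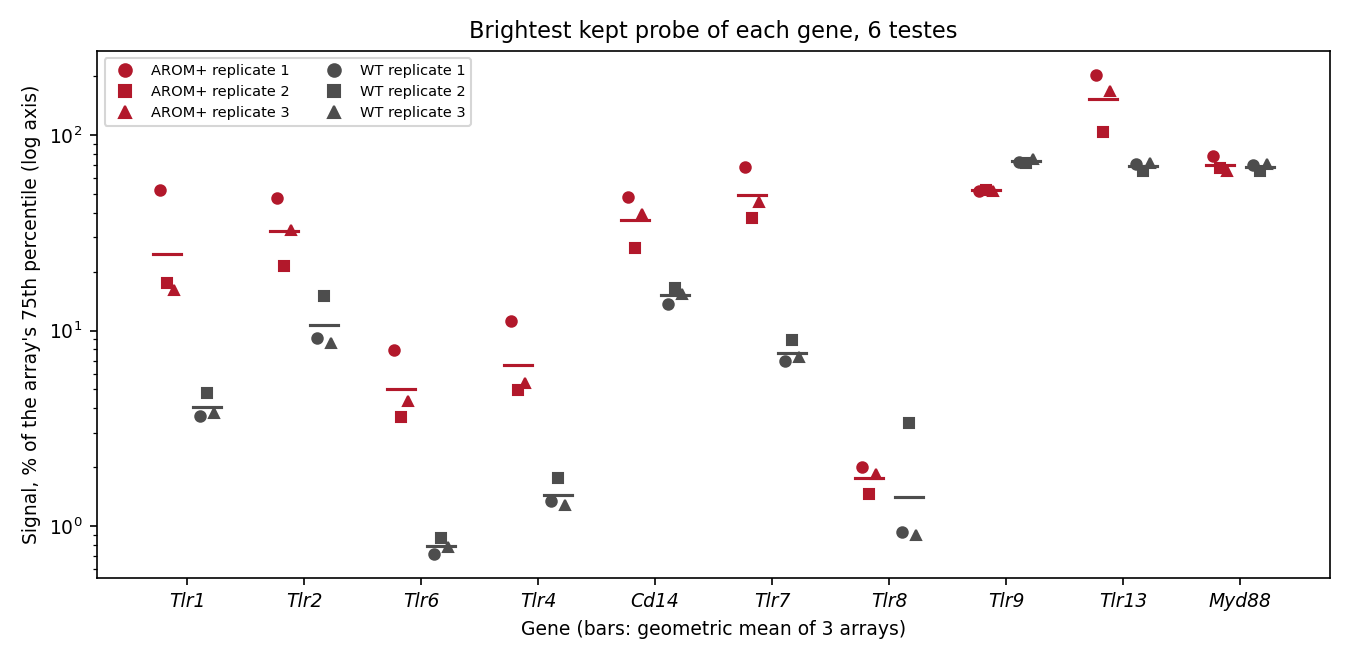
Signal of the brightest kept probe of each gene on every array, as a percent of that array's 75th percentile (log axis), with AROM+ testes in red to the left of WT testes in grey and bars at the geometric mean of 3 arrays. The groups do not overlap for Tlr1, Tlr2, Tlr6, Tlr4, Cd14, Tlr7 and Tlr13, which are higher in AROM+, nor for Tlr9, which is lower; they overlap for Tlr8 and Myd88.

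Signals are given as percent of the 75th percentile of the processed intensity on the same array, and a signal of 1 probe is not set against that of another. The lipopeptide receptors were all higher in AROM+ testes. Tlr1 read 52.5%, 17.4% and 16.2% in the AROM+ testes (replicates 1, 2 and 3), against 3.67%, 4.77% and 3.79% in the WT testes. The groups were well apart, and AROM+ replicate 1 stood above its 2 group mates. The difference was 2.60 ± 0.44 on the log2 scale (SE, n = 3 per group; adjusted p = 0.0055), or 6.07-fold. Tlr2, the common partner of the pair, read 47.8%, 21.4% and 32.5% in AROM+ and 9.19%, 14.99% and 8.68% in WT testes. The lowest AROM+ testis lay above the highest WT testis, and the difference of 1.60 ± 0.33 (adjusted p = 0.00952) was a 3.03-fold rise. The Tlr2 probe is printed 10 times on each array, and its spots varied by an SD of 0.047 to 0.0738 on the log2 scale, well under the spread between testes of a group (SD 0.581 in AROM+ and 0.433 in WT).

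Tlr6 was above background in AROM+ testes and in none of the WT testes. Its probe read 7.97%, 3.63% and 4.37% in the 3 AROM+ testes, against 0.72%, 0.866% and 0.78% in the 3 WT testes, where it was not well above background. A bound was taken against the lowest signal of any probe that counted as above background on each WT array. At that bound Tlr6 was 5.93-fold higher in AROM+. It is not a detection limit of the Tlr6 probe. On WT replicate 3 this probe read 0.7799%, above the lowest such signal of 0.7794%, and was still not well above background. A smaller fold is therefore possible. The limma adjusted p of 0.00241 belongs to the fitted difference of 2.67, which rests on WT signals not well above background. With background corrected by normexp and an offset added to every signal, the fitted difference was 1.37 in place of 2.67 and stayed past the threshold.

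Tlr4 and Cd14, which act in lipopolysaccharide recognition, both rose. Tlr4, the signalling receptor, read 11.2%, 4.94% and 5.36% in AROM+ and 1.34%, 1.76% and 1.28% in WT testes, on its probe at chr4:66503470-66503529. All 3 AROM+ testes lay above all 3 WT testes. The difference was 2.21 ± 0.32 (adjusted p = 0.00396), or 4.62-fold, and with normexp background correction it was 1.13. A second Tlr4 probe, designed on another transcript model 86607 bases away, was not well above background on any array. Cd14 read 47.9%, 26.5% and 39.7% in AROM+ testes and 13.6%, 16.5% and 15.3% in WT testes, on a probe on chromosome 18. Here too the groups were separate, with a difference of 1.29 ± 0.22 (adjusted p = 0.00547), or 2.44-fold.

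Of the 4 endosomal receptors, 2 were higher, 1 was lower and 1 was not called. Tlr7, a receptor for single-stranded RNA, read 69.0%, 37.7% and 45.6% in AROM+ and 6.98%, 8.89% and 7.32% in WT testes, on its brightest probe (chrX:163742863-163742922, minus strand). This was the largest difference among the 10 genes by fitted value for a gene measured on all 6 arrays, 2.68 ± 0.23 (adjusted p = 0.00175), or 6.39-fold. A second probe 283 bases away read 38.6%, 19.5% and 26.1% in AROM+ and 2.87%, 3.65% and 3.17% in WT testes, a difference of 3.07 ± 0.24. Another probe, 4351 bases from the first and designed on a different transcript model, read 1.35%, 1.60% and 1.92% in AROM+ and 1.90%, 1.41% and 1.92% in WT testes. It was above background on all arrays, its groups overlapped, and its difference was −0.10 ± 0.18 (adjusted p = 0.661 over the 42626 probes fitted). With the mean of the 3 probes, Tlr7 was called higher by 1.88. In the fit over probes 14.1% were called higher and 30.3% lower.

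Tlr8, whose gene lies next to Tlr7 on the X chromosome, was not called. Its kept probe read 2.00%, 1.46% and 1.84% in AROM+ testes and 0.937%, 3.35% and 0.899% in WT testes. WT replicate 2 was the highest of all 6 arrays and the single WT array on which the probe was above background. The difference was 0.31 ± 0.50 (95% interval −0.887 to 1.51, adjusted p = 0.621). Without WT replicate 2 the difference was 0.93 and called (limma adjusted p = 0.0103), but no WT signal then left was above background, so this value rests on background. Without WT replicate 3 it was −0.017. The other Tlr8 probe was not well above background on any array.

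Tlr9, the receptor for unmethylated CpG DNA, was lower in AROM+ testes. It read 51.9%, 52.6% and 51.6% in AROM+ and 72.9%, 72.0% and 75.4% in WT testes. The replicates lay within a few percent of each other in both groups, and the groups were separate. The difference was −0.50 ± 0.074 (95% interval −0.675 to −0.319, adjusted p = 0.00414), or 1.41-fold lower, and it stayed below 0 and past the threshold under all 16 other settings, at −0.60 to −0.47. Tlr13, which recognises bacterial ribosomal RNA in the mouse, read 203%, 103% and 168% in AROM+ and 71.0%, 65.2% and 71.9% in WT testes. No WT testis reached the lowest AROM+ testis, and Tlr13 rose by 1.14 ± 0.24 (adjusted p = 0.00985), or 2.20-fold.

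Myd88 was not called. It read 78.1%, 67.5% and 65.7% in AROM+ and 69.9%, 65.1% and 70.7% in WT testes, and the groups overlapped. The difference was 0.035 ± 0.098 with a 95% interval of −0.20 to 0.271 (adjusted p = 0.78). The upper bound lies below the lower bound of each of the 7 genes that rose. This probe is also printed 10 times per array, with an SD between spots of 0.0451 to 0.0797. Groups that did not overlap were found for 7 genes in the higher and 1 in the lower direction, while over all genes 23.4% were separate and higher and 40.2% separate and lower. The 7 include Tlr6, whose WT signals were not well above background.

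**Figure D2:**
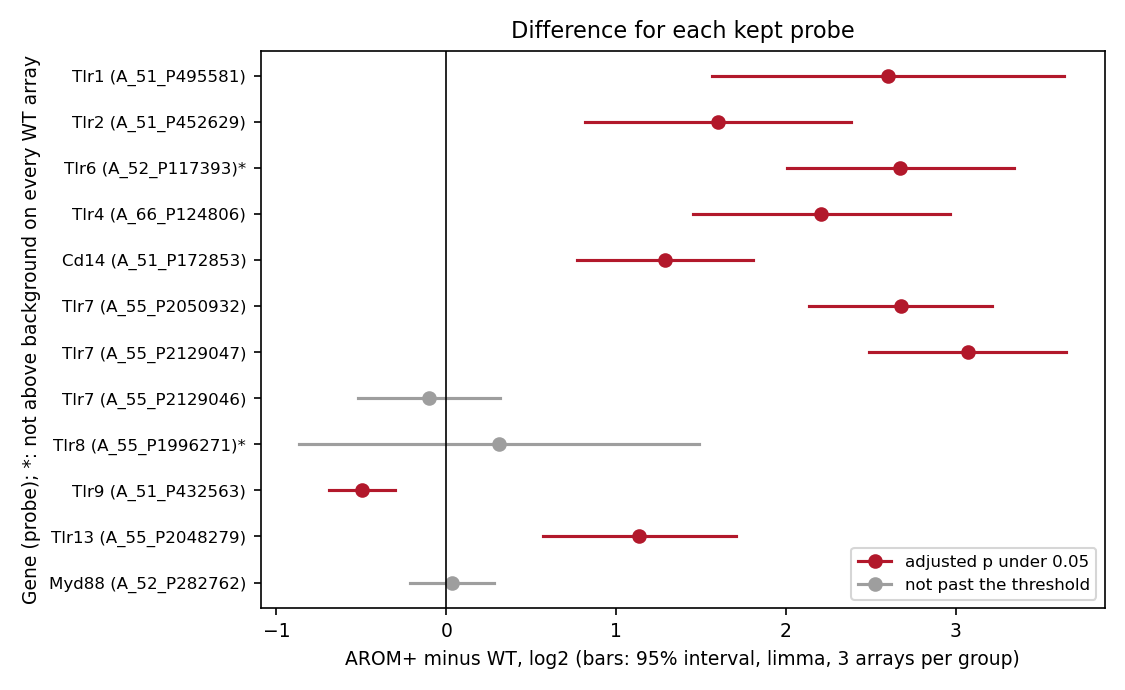
Difference between AROM+ and WT testes on the log2 scale for each of the 12 kept probes, with 95% intervals from limma (n = 3 per group) and red for an adjusted p under 0.05 over probes. An asterisk marks the probes of Tlr6 and Tlr8, which were not above background on every WT array, so their fitted differences rest on signals near background. Intervals of 9 probes lie above or below 0, while those of the dimmest Tlr7 probe, Tlr8 and Myd88 span it.

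Within a group, most of the genes had their highest value on the same array. AROM+ replicate 1 had the highest AROM+ value for 9 of the 10 genes, with Tlr9 as the exception, and AROM+ replicate 2 had the lowest for 7. In WT, replicate 2 had the highest value for 7 genes, namely Tlr1, Tlr2, Tlr4, Tlr6, Tlr7, Tlr8 and Cd14. The mean of 8 macrophage markers (log2 relative to the 75th percentile) ran 2.29, 1.67 and 2.07 in AROM+ replicates 1, 2 and 3 and 0.41, 0.82 and 0.28 in the WT replicates, so AROM+ replicate 1 and WT replicate 2 were also highest there. These values are set side by side as a description of 6 arrays that share their scaling.

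Of those 8 macrophage markers, 6 were called higher and 1 lower, with a median difference of 1.89. Their summed signal was 4846% to 6120% in AROM+ against 3042% to 4390% in WT testes. Here and below, a sum adds signals of different probes, so its brightest probe weighs most and it does not measure cell content. In this sum Itgam alone read 2135% to 2581% in AROM+ and 2101% to 3095% in WT testes. The lysozyme gene Lyz2 (2.79 ± 0.37), the signalling adaptor gene Tyrobp (2.68 ± 0.27) and the lysosomal gene Cd68 (2.40 ± 0.28) rose most. Itgam (−0.089) was not called and Csf1r was called lower (−0.44) by their brightest probes, whereas other probes of these genes differed by up to 0.84 and 2.04. The pan-leukocyte gene Ptprc rose by 0.71 ± 0.21 (adjusted p = 0.0298). No defining marker of macrophages was absent from either group.

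Markers of other leukocytes were read beside these. Of 6 neutrophil markers 5 were measured, and S100a8 and S100a9 (1.69) rose while Mpo fell (−0.87). S100a8 read 4.42%, 1.75% and 11.5% in AROM+ and 0.468%, 0.595% and 1.09% in WT testes, where it was above background on 1 of 3 arrays, so its fitted difference of 2.73 rests on signals near background. The summed signal of the neutrophil markers was 37.7% to 62.0% in AROM+ and 45.7% to 49.5% in WT testes. Mpo alone made up 16.4% to 18.5% in AROM+ and 30.7% to 31.8% in WT testes, on the same scale. Ngp was not well above background throughout either group. Of 5 markers of plasmacytoid and other dendritic cells, Itgax rose by 4.23, Flt3 (−0.46) and Zbtb46 (−0.80) fell, and Siglech was −0.21 by its brightest probe and 3.24 by another. Their summed signal was 902% to 1083% in AROM+ and 1006% to 1121% in WT testes. Most of it came from the brightest Siglech probe, at 796% to 929% in AROM+ and 926% to 1047% in WT testes. The B cell receptor gene Cd79b rose by 2.10 ± 0.32 (adjusted p = 0.00434), and it read 41.6%, 19.3% and 17.7% in AROM+ against 5.12%, 6.44% and 5.48% in WT testes. Of 4 T cell markers Cd4 alone was called (0.79, with another probe at −0.28), and the sum was 93.2% to 175% in AROM+ and 63.2% to 77.0% in WT testes. The part of these cell types in the receptor differences was not tested.

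Markers of the testis itself were present in both groups. All 5 spermatid markers were measured, 3 of them lower in AROM+ and none higher, with a summed signal of 7479% to 7729% in AROM+ and 8779% to 9199% in WT testes. Of 5 Sertoli cell markers 2 were higher, and the sum was 2190% to 2657% in AROM+ and 1272% to 1683% in WT testes. Of 4 Leydig cell markers measured, 1 was higher, the luteinising hormone receptor gene Lhcgr (3.72 ± 0.96), and 3 were not called, Star at −0.40 ± 0.62, Cyp17a1 at −0.42 ± 0.36 and Hsd17b3 at −1.08 ± 0.78. The median over the 4 was −0.41, and the sum was 857% to 1773% in AROM+ and 923% to 1889% in WT testes.

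To ask which receptors moved by as much as the macrophage markers, the mean log2 value of the markers was subtracted from each gene on every array. With 3 arrays per group an exact two-sided permutation test cannot go below p = 0.1, so these are descriptions. The marker mean itself was 1.51 higher in AROM+ testes. Relative to it, Tlr7 was 1.17 higher, Tlr1 1.09 and Tlr4 0.70 higher, with no overlap between groups. Tlr6, with no WT signal well above background, is set here at its bound, which lay 1.06 higher. Tlr8 is not set against the markers, since its probe was above background on a single WT array. Tlr2 (0.092), Cd14 (−0.22) and Tlr13 (−0.37) overlapped between groups. Myd88 (−1.47) and Tlr9 (−2.00) lay below the marker mean, again without overlap.

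The choice of markers shifts these values together. Without Itgam and Csf1r the marker mean was 2.10 higher in AROM+. Tlr7 was then 0.58 above it without overlap and Tlr6, at its bound, 0.47 above, while Tlr1 (0.50) and Tlr4 (0.11) overlapped. Under that choice Tlr2 (−0.50), Cd14 (−0.81) and Tlr13 (−0.96) lay below the mean without overlap. With each marker as the mean of its kept probes, Tlr7 was 0.88 higher, Tlr6 at its bound 0.77 higher, Tlr9 was −2.30 and Myd88 −1.76. Each of the 10 genes was taken by its brightest kept probe throughout. By that probe, Tlr7, Tlr9 and Myd88 kept their side of the marker mean, without overlap, under all 3 choices. The marker mean rose by 1.51 to 2.10, so a gene that changes little or falls lies below it by construction. This holds for Myd88 and Tlr9, and the share of all genes that lie below was not computed. For Tlr7 this depends on the probe. The mean of its 3 probes rose by 1.88, less than the 2.10 of the marker mean without Itgam and Csf1r. It was just above the 1.80 of the mean over each marker's probes.

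**Figure D3:**
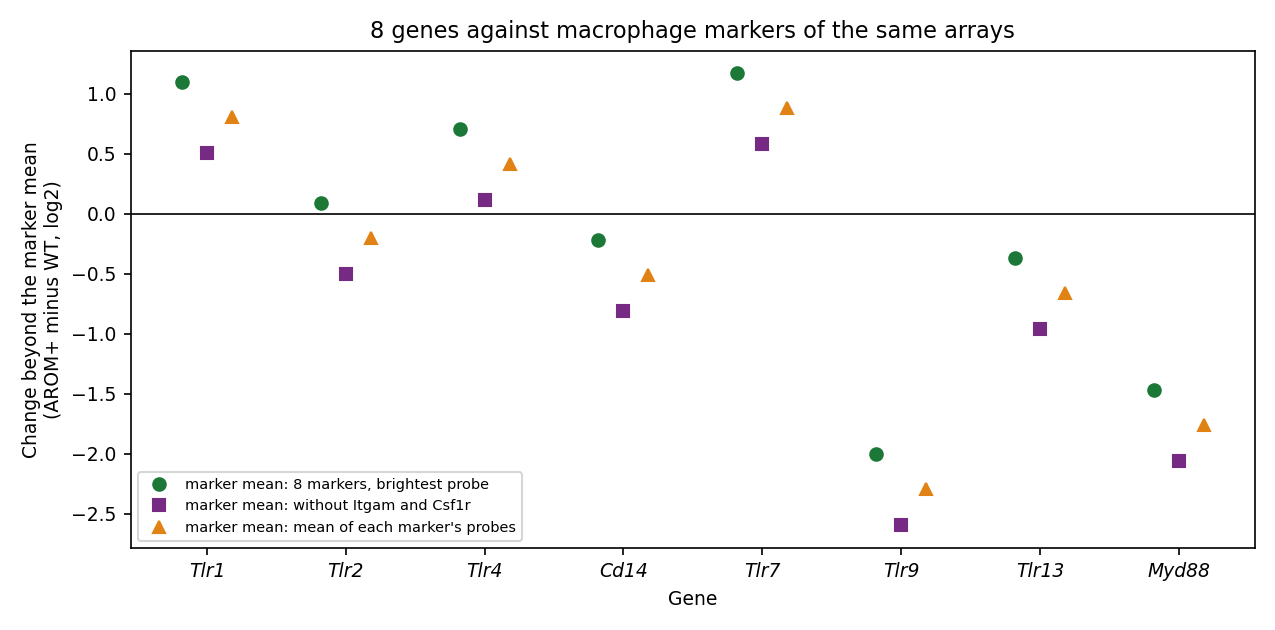
Difference between AROM+ and WT testes for the 8 genes above background on all 6 arrays, after subtracting the macrophage marker mean of the same array (log2), under 3 ways of taking that mean. Each gene is taken by its brightest kept probe. Tlr7 by that probe lies between 0.58 and 1.17 under each, and Tlr9 and Myd88 lie at −1.47 or lower.

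The rest of the pathway was followed in 67 further genes in 8 lists, of which 58 were measured. Of these 25 were higher, 8 lower and 25 not called in AROM+ testes, with a median difference of 0.36. The shares of all genes called are those given above, 19.9% higher and 32.6% lower.

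Among the other 4 Toll-like receptors, Tlr12, which recognises profilin of parasites in the mouse, rose by 2.35 ± 0.39 (adjusted p = 0.00519). Its probe read 15.5%, 6.56% and 5.02% in AROM+ and 1.52%, 1.67% and 1.52% in WT testes, without overlap. The flagellin receptor gene Tlr5 (0.34) and Tlr11 (0.33) were not called, and Tlr3 was not well above background throughout either group.

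All 4 genes of the list of lipopolysaccharide accessory proteins and RP105 proteins rose, with a median of 1.85 when Cd180 is put at its bound. Ly96 encodes MD-2, the ligand-binding partner of the Tlr4 receptor, and read 77.7%, 52.3% and 66.7% in AROM+ against 23.7%, 25.0% and 18.6% in WT testes, a difference of 1.54 ± 0.18 (adjusted p = 0.00283). Lbp, the binding protein that delivers lipopolysaccharide to CD14, rose by 2.09 ± 0.24. Cd180 encodes RP105, a Toll-like homologue that lacks the signalling domain. It was above background on all AROM+ arrays and on no WT array, and 3.05-fold higher at a bound taken as for Tlr6. Its partner gene Ly86 read 488%, 190% and 223% in AROM+ and 56.7%, 66.4% and 51.8% in WT testes, a difference of 2.24 ± 0.34 (adjusted p = 0.00436).

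Of 4 receptor trafficking genes, Unc93b1 alone was called. It read 298%, 145% and 185% in AROM+ testes, against 38.4%, 51.6% and 34.6% in WT testes, and rose by 2.29 ± 0.28 (adjusted p = 0.00305). The chaperone genes Cnpy3 (0.17) and Hsp90b1 (−0.23, adjusted p = 0.0574) and the transporter gene Slc15a4 (−0.0081) did not pass the test. Of the 4 other adaptors, Ticam1, which encodes the MyD88-independent adaptor TRIF, was higher (0.74 ± 0.19) and Pik3ap1 lower (−0.97 ± 0.27). Tirap, the adaptor that bridges MyD88 to surface receptors, had a difference of −0.10 and was not called, and Ticam2 was not well above background throughout either group.

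Of 17 genes of kinases and ubiquitin ligases that act between the receptors and NF-κB, 9 were higher and 3 lower, with a median of 0.29. The tyrosine kinase gene Btk rose by 1.25 ± 0.22, Ikbke, which encodes an IκB kinase relative, by 1.10 ± 0.29 and the ubiquitin ligase gene Traf6 by 0.89 ± 0.090. The other kept probe of Btk rose by 2.63 and that of Traf6 differed by 0.13. Irak4, the first kinase recruited to MyD88, was lower by its brighter probe (−1.07 ± 0.25) and 1.12 by the other, so its direction depends on the probe. Map3k7 (−0.60) and Ube2n (−0.44) were lower too, with other probes of them up to 0.066 and 0.13.

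Among 9 transcription factors, 3 rose and none fell. Irf5, an interferon regulatory factor that acts downstream of MyD88, read 122%, 52.8% and 81.8% in AROM+ and 14.0%, 16.1% and 10.9% in WT testes, a rise of 2.58 ± 0.31 (adjusted p = 0.0029). Relb (0.92 ± 0.13, with other probes down to −0.063) and Rel (0.44 ± 0.14), both of the NF-κB family, rose by less. Nfkb1 was not called by its brightest probe (−0.30, adjusted p = 0.125), while its other kept probe differed by 1.28. Of 9 inhibitors, 3 were higher and 3 lower. The NF-κB-induced genes Tnfaip3 (0.88 ± 0.22) and Nfkbia (0.73 ± 0.15) rose, as did the deubiquitinase gene Cyld (0.48 ± 0.090, with another probe at −0.25). Sarm1 (−0.48), Sigirr (−0.46) and Irak3 (−0.45), which encode brakes on Toll-like receptor signalling, were lower.

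Among 16 genes that macrophages switch on after Toll-like receptor stimulation, 9 were measured, and 3 were higher and 1 lower. The chemokine gene Ccl3 read 42.6%, 12.8% and 24.8% in AROM+ testes, against 1.52%, 1.09% and 0.991% in WT testes, a difference of 4.33 ± 0.42 (adjusted p = 0.00217). Ccl4 (2.24 ± 0.50) and Cxcl1 (1.74 ± 0.27) also rose, and Nfkbiz was lower (−0.55 ± 0.18). Il1b differed by −0.021 and was not called. Probes of Tnf, Il6, Il10, Il12b, Ifnb1, Cxcl2 and Ptgs2 were not well above background on all arrays of either group, so their levels were not compared.

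**Figure D4:**
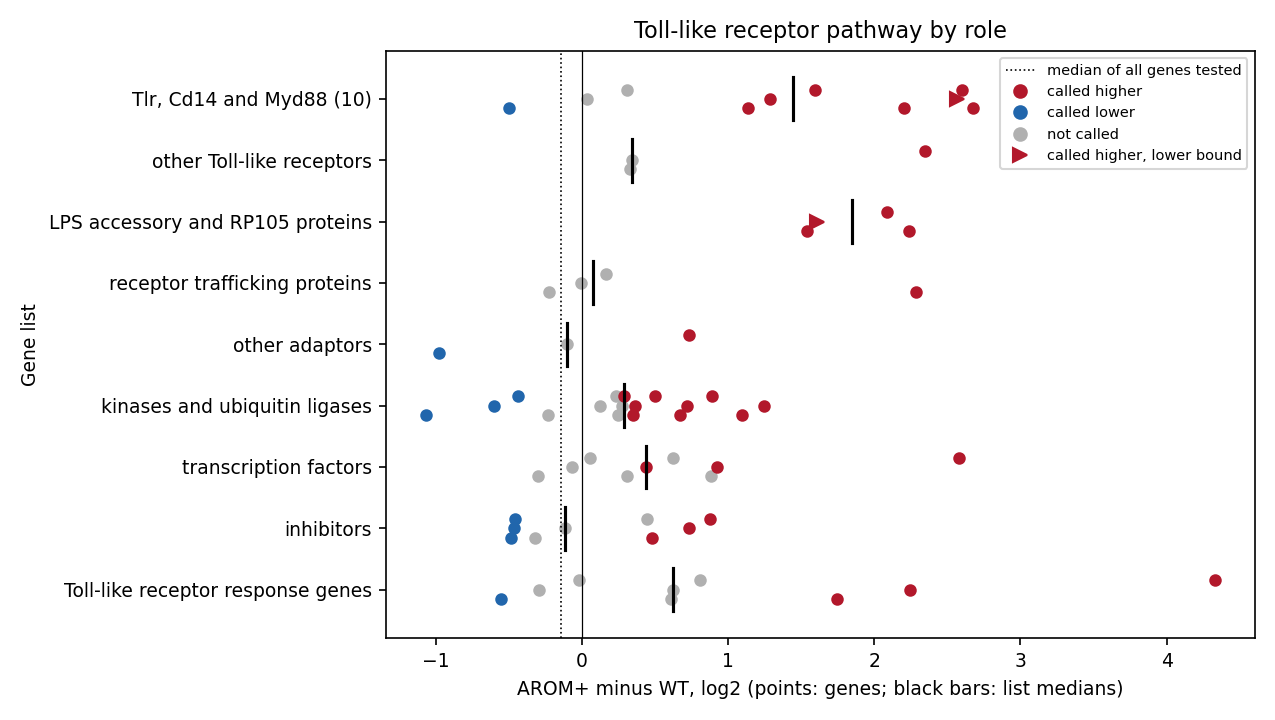
Difference between AROM+ and WT testes (log2) for every measured pathway gene, in rows by role. Red marks genes called higher, blue called lower and grey not called. Triangles, labelled lower bound, mark the bound of Tlr6 and Cd180, which were not above background in WT. It is not a detection limit of their probes. Black bars are list medians with those genes at their bound, and a dotted line marks the median of all genes tested (−0.14). Ly96, Lbp and Ly86, of the lipopolysaccharide accessory and RP105 list, lie between 1.54 and 2.24, while the kinases lie between −1.07 and 1.25.

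For the 3 genes with the largest differences measured on all 6 arrays, the genes with the nearest pattern were found by the root mean square distance over the 6 arrays after centring each gene on its own mean, among 16478 candidates. Nearest to Tlr7 were Gng2 (0.0877 log2 units), Sirpa (0.119) and Sh3pxd2b (0.143). Thbs4 (0.111), Serpinb9 (0.133) and Ifi207 (0.146) were nearest to Tlr1. Ly86 (0.0726), Mpp1 (0.0774) and P2ry6 (0.0856) were nearest to Tlr4. The distance keeps the difference between the groups, so genes with a like difference come out nearest by construction. Those nearest to Tlr7 differed by 2.70, 2.77 and 2.75 in the order named, beside 2.68 for Tlr7.

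Promoter sequence was examined for the members found in a RefSeq table of the GRCm38.p6 build, which held 7 of the 10 genes (not Tlr4, Tlr7 or Cd14) in 9 windows of 250 bases before a transcript start. The motifs searched on both strands were GAGGAA, a core bound by the myeloid factor PU.1, TGANTCA, the AP-1 site, TATAAA, the interferon response element (GAAA repeated after any 2 bases) and the full palindromic oestrogen response element with any 3 bases at its centre. GAGGAA was in 4 of the 9 windows, those of Tlr13, Tlr8, Tlr9 and 1 of the 2 Tlr1 windows, and in 23.3% of 32851 promoter windows of all genes. The interferon response element was in 2 windows, 1 of Tlr6 with 2 overlapping matches and that of Myd88, and in 2.98% of all. TATAAA was in 3 windows (12.4% of all), TGANTCA in that of Tlr9 (6.75% of all) and the oestrogen response element in none (0.0639% of all).

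The windows below are shown as examples for genes that rose (Tlr1, Tlr13, Tlr6) and for Tlr9, which fell. Each is printed 5′ to 3′ on the strand of its gene and ends at the base before the transcript start. Capitals mark GAGGAA in Tlr1, Tlr13 and Tlr9, and in Tlr6 the 2 overlapping matches to the interferon response element, which are on the opposite strand.
Tlr1: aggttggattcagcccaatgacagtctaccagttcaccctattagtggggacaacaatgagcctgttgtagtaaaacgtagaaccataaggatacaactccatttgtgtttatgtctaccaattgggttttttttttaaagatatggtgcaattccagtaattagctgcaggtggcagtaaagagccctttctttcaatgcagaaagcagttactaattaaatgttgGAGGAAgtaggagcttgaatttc
Tlr13: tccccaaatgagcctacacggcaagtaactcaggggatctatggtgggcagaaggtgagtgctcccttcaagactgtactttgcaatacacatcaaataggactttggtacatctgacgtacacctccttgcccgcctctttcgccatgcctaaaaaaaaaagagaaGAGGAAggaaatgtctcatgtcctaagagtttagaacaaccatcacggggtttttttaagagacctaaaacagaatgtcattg
Tlr6: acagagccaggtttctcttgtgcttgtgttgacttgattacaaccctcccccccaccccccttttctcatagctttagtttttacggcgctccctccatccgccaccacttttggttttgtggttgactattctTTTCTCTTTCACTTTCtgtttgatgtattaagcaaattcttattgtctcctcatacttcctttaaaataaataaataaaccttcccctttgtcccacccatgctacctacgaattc
Tlr9: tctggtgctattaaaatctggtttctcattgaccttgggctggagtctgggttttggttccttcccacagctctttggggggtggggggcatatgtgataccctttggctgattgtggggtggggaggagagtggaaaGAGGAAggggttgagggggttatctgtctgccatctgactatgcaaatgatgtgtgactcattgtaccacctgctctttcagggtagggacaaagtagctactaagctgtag
They lie at chr5:64933559-64933808 (minus strand), chrX:106143025-106143274 (plus strand), chr5:64959167-64959416 (minus strand) and chr9:106222348-106222597 (plus strand) of GRCm38.p6, in the order printed. The GAGGAA match begins 23 bases before the start of Tlr1, 83 before that of Tlr13 and 112 before that of Tlr9, so a gene that fell and genes that rose both carry it. These matches describe the letters of the windows.

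Some of the genes are neighbours. Tlr1 and Tlr6 follow each other on chromosome 5 and both rose, while Tlr7 and Tlr8 follow each other on the X chromosome, where Tlr7 rose and Tlr8 was not called. The genes on their outer sides were named after the values were seen. Prps2 beside Tlr7 rose by 2.17 ± 0.33 and Klf3 beside Tlr1 by 1.08 ± 0.23. Fam114a1 beside Tlr6 (0.37) and Tmsb4x beside Tlr8 (0.27) were not called. Tlr9 lies between Twf2 and Alas1 on chromosome 9 in the RefSeq order, a pair named after the values were seen. Twf2 was higher by 0.63 ± 0.13 (adjusted p = 0.0102) and Alas1 differed by 0.096 and was not called.

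Over the whole series, an array had 76.6% to 80.6% of its spots well above background and none saturated, and its 75th percentile lay at an intensity of 3696 to 5431. Across genes the arrays correlated at 0.986 to 0.991 within AROM+, 0.994 to 0.996 within WT and 0.949 to 0.979 between the groups. All 6 arrays were on 1 slide, with AROM+ in one row of the slide and WT in the other, so position and group cannot be told apart. The number of arrays limits the precision of every value.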

How the data were processed

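Spot intensities were deposited in the output files of the scanner software. The file headers give Agilent Feature Extraction 10.7.3.1, whereas the submitters' processing notes give 10.10. The intensity used here, the processed signal, has had its background removed by that software, per the file headers. The authors also deposited a table of log2 values. Set against the scanner values, each of its columns matched the log2 processed signal, less a single constant (r of at least 0.9998), with genes not centred and column medians of −3.36, −3.38 and −3.34 in AROM+ and −3.41, −3.40 and −3.38 in WT. The reason for the constants is not known.

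The genotype in the labels set the groups, and since the labels name single testes, p-values measure the spread between these testes. From log2 of the processed signal the 75th percentile of the same array was subtracted. There were 62976 spots per array. The 3671 control spots and 123 to 192 spots with outlier flags were left out, and spots of one probe were averaged. Probes well above background on each of the 3 arrays of either group were kept (42636 of 55681), and 42626 with a value on every array were fitted. RefSeq symbols (GRCm38.p6 table) were matched by accession (26150 probes), symbol (3749) or synonym (623), and the members by the name in the files (14 probes). The 702 probes that list several genes and 24443 others were left unnamed. The brightest kept probe stood for its gene. The model was fitted in limma 3.58.1 under R 4.3.3 (lmFit and eBayes, Benjamini-Hochberg over 18852 genes, threshold 0.05). The fit was tested on simulated data. A gene above background in one group only was given a bound against the lowest signal of any probe above background on each array of the other. Where the gene's own signal there was higher, that signal was used.

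The members, lists, motifs and settings were chosen with earlier results of these data known. Named are all members, up to 3 called genes of each list with the largest difference (or the one with the smallest p), Ptprc and the 3 nearest genes by pattern to each of 3 members. A gene that the rule names is not reported here. Other members of a list are named to account for the list, and these were chosen after their values were seen. Spike-in scaling and the other 2 macrophage marker means were added after seeing the data. Same-numbered replicates of the groups did not deviate together (r = 0.016, −0.236 and 0.004), so the numbers were not used as pairs.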

Additional observations from a re-analysis of the deposited data

How the results depend on the processing

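Each result was recomputed under 16 other settings. Tlr1, Tlr2, Tlr4, Cd14, Tlr7, Tlr13 and Tlr9 kept their direction and their call under all 16, as did Tlr6 under the 15 that could test it: Tlr6 and Tlr8 were left out by requiring signal on all 6 arrays. The number of the 10 genes called higher was 6 to 8 (7 to 8 with an array left out), and the number called lower was 1 throughout. The 8 includes Tlr8 without WT replicate 2, where its WT signals were not above background. Of the pathway genes, 18 to 27 were called higher. The count called lower, 8 in the reported fit, was 5 with quantile normalization, 13 with centring on the gene median, and 5 to 8 with an array left out (5 with WT replicate 1 or WT replicate 3 left out). The median of all genes was −0.14 as reported, −0.040 with quantile normalization, −0.24 with centring on the gene median and −0.20 with spike-in scaling. Calls in the higher direction were 37.9% of all calls as reported, 50.5% with quantile normalization and 28.8% with centring on the gene median. By count, higher and lower calls were 3749 and 6138 as reported, 4099 and 4010 with quantile normalization, 2608 and 3932 without WT replicate 1, 2647 and 3804 without WT replicate 3, and 2424 and 4155 with spike-in scaling. The cause of these shifts was not tested.

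Neither of the genes without a call had a stable sign. Myd88 was −0.064 with centring on the gene median, −0.024 with spike-in scaling and −0.041 to 0.083 with an array left out (−0.041 without AROM+ replicate 1 and −0.0014 without WT replicate 2). Tlr8 was −0.017 with normexp background correction, and −0.017 to 0.93 with an array left out. With the replicate number as a replicate block, the counts were 7 members higher, 1 lower, 21 pathway genes higher and 7 lower, and no call of a member changed. The slide as a block was not run, since all arrays are on 1 slide. Genes near background, such as Tlr6, Tlr8, Cd180 and S100a8 in WT testes, have folds limited by the signal over background.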
